A study of Rattus norvegicus with 36 samples.

Results

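The lungs described here came from rats that were never irradiated (0 Gy), and the comparison is between controls collected at 4 weeks and controls collected at 1 week. The members were the 6 lung libraries labelled 0 Gy, 3 at each week, out of 36 libraries in the series. All 6 came from female WAG/RijCmcr rats that were 9 to 10 weeks old when the treated rats were given a thoracic X-ray dose of 15 Gy, and weeks were counted from that exposure. These controls carried no transgene and received no agent, and were otherwise kept like the treated rats. The comparison asks how much lung miRNA levels vary between control groups of different week when no dose was given. According to the methods of the study, equal amounts of RNA of 3 rats were pooled for each library, whereas the labels give 3 rats per group. A replicate is therefore a pool, n counts libraries, and p-values measure the spread between pools.

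miRNAs are short RNAs that guide Argonaute proteins to messenger RNAs and reduce their translation or stability. A hairpin precursor yields a 5p and a 3p arm, of which 1 is usually kept and the other, the passenger strand, is mostly degraded. Target choice rests largely on the seed, bases 2 to 8 of the mature RNA, so that miRNAs with a shared seed form a family. Several lung miRNAs are known for the cell type that holds most of them, such as miR-143 and miR-145 for smooth muscle, miR-126 for endothelium, the miR-200 family for epithelium, miR-375 for neuroendocrine cells and miR-486 and miR-451 for red cells.

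Sequencing depth differed between the groups. The total counts were 1523909, 964989 and 11621 in replicates 1, 2 and 3 at 1 week, and 3807051, 2013989 and 1682183 at 4 weeks. By total count, every library at 4 weeks was above every library at 1 week. Week and total count therefore cannot be told apart in these data. In the total reads that the study lists, replicate 3 at 4 weeks was below replicate 1 at 1 week. The labels give no batch. Of the 947 entries in the count table (458 known rat miRNAs, 116 homologs of miRNAs of other species and 373 predicted new miRNAs), 121 were at 0 in all 6 libraries and 210 were detected in all 6.

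Both replicates numbered 3 stood apart from the rest. In replicate 3 at 1 week, 1 count was worth 53.8 CPM (counts scaled to a common library size with TMM factors, which align the libraries on the bulk of their miRNAs). A count of 0 there allowed a level of up to 161 CPM, the value of 3 counts, and this floor covers counting error only. It listed 216 entries above 0, against 625 to 751 in the other 5 libraries, and 286 of the miRNAs tested (242 known miRNAs, 62 homologs and the new entries that passed the filter on low counts) were at 0 in it. When the other libraries were thinned to 11621 counts by calculation, 207 to 279 entries would be detected in them. Replicate 3 at 4 weeks was of ordinary depth but of unusual composition. miR-143-3p took 17.9% of its counts, against 9.58% and 9.43% in the other 4 week libraries. A predicted new entry on chromosome 18 follows miR-143-3p, and both together took 39.2% there, 20.98% and 20.7% in the other 4 week libraries and 16.5%, 16.6% and 32.8% at 1 week. By this measure both replicates numbered 3 were high. An overlapping new entry held the same counts as the first in 5 libraries and 0 in replicate 3 at 1 week, which brings the sum of the 3 entries to 60.6% in replicate 3 at 4 weeks. The TMM factor of this library was 0.463, against 1.07 to 1.60 in the others, which raises its CPM values relative to its shares of counts. The 3 entries took 25.5% to 32.8% in the other 5 libraries. Shares and fits on library totals are taken over all of these counts. The 3 entries thus lower the shares of other miRNAs in replicate 3 at 4 weeks. The entry at 0 in replicate 3 at 1 week raises the other shares there.

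**Figure D1:**
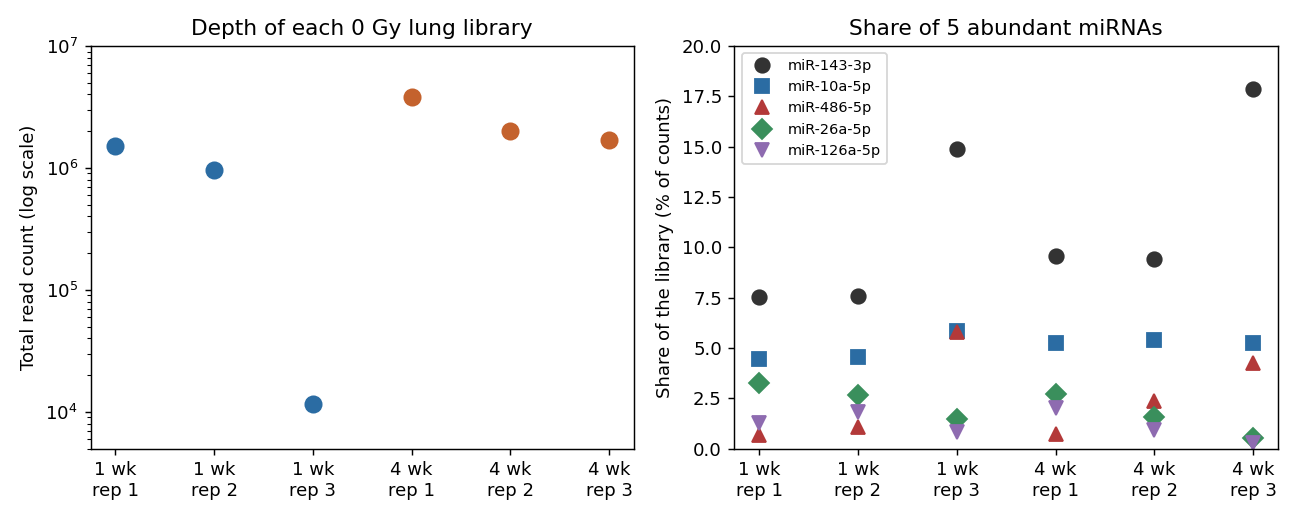
The left panel shows the total count of each of the 6 libraries of 0 Gy lung on a log axis, and the right panel shows the percent of each library's counts taken by miR-143-3p, miR-10a-5p, miR-486-5p, miR-26a-5p and miR-126a-5p. Replicate 3 at 1 week has 11621 counts where the other 5 libraries have 964989 or more, and miR-143-3p is at 14.9% and 17.9% in the replicates numbered 3 and at 7.54% to 9.58% in the other 4 libraries.

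The sequences below are those of the 10 known miRNAs with the smallest p in the comparison, followed by 4 that stand for a family or for the most abundant lung miRNAs. They are mature sequences of RefSeq on the assembly GRCr8, written 5′ to 3′, with the seed in capitals, and 218 of the 242 known miRNAs tested had a RefSeq sequence of the same name.
miR-582-3p: aACCUGUUgaacaacugaaccc
miR-30c-2-3p: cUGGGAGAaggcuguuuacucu
miR-375-3p: uUUGUUCGuucggcucgcguga
miR-10a-5p: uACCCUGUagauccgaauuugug
miR-423-5p: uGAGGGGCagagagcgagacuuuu
miR-143-3p: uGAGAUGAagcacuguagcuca
miR-182: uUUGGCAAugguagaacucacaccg
miR-107-3p: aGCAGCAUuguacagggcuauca
miR-181a-2-3p: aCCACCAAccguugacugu
miR-125b-2-3p: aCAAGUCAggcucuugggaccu
let-7f-5p: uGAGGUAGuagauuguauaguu
miR-126a-5p: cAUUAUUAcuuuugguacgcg
miR-26a-5p: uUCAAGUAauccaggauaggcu
miR-191a-5p: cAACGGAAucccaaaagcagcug
The seeds of the 10 differed from each other, so no seed family was represented more than once among them.

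On GRCr8, the mature miR-582-3p lies at chr2:42662001-42662022 on the plus strand, miR-30c-2-3p at chr9:33253735-33253756 (plus), miR-375-3p at chr9:83906591-83906612 (minus) and miR-10a-5p at chr10:81779730-81779752 (plus). miR-423-5p lies at chr10:62412317-62412340 (minus), miR-143-3p at chr18:57371373-57371394 (minus), miR-182 at chr4:59752249-59752273 (minus) and miR-107-3p at chr1:241750431-241750453 (minus). miR-181a-2-3p lies at chr3:43025646-43025664 (plus), miR-125b-2-3p at chr11:29732627-29732648 (plus), miR-126a-5p at chr3:29813182-29813202 (plus), miR-26a-5p at chr8:127633063-127633084 (plus) and miR-191a-5p at chr8:118142641-118142663 (plus). let-7f-5p is made from 2 precursors, at chr17:16320508-16320529 and chrX:24460052-24460073 (both plus). All of these are mature miRNA products within their annotated precursors.

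No miRNA passed the threshold between 4 weeks and 1 week in unirradiated lung. With the quasi-likelihood test of edgeR and Benjamini-Hochberg adjustment, 0 miRNAs (0%) of those tested passed an adjusted p of 0.05, and the smallest adjusted p was 0.568. At an unadjusted p under 0.05, 28 (5.61%) had the higher level at 4 weeks and 8 (1.6%) the lower, 36 (7.21%) in all, where 24.95 are expected by chance. DESeq2 called 4 higher (0.802%) and 2 lower (0.401%) at its adjusted p, each of them a predicted new entry that was above 0 in only 1 or 2 of the 6 libraries. DESeq2 gave 23 higher (4.61%) and 5 lower (1%) at an unadjusted p. The levels of the groups did not overlap for 56 miRNAs (11.2%) in the direction of 4 weeks and for 12 (2.4%) in the direction of 1 week. Of these, 40 of the 56 and 6 of the 12 had under 3 counts in replicate 3 at 1 week, so that its place beside the 4 week libraries is not known for them. Without replicate 3 at 1 week the groups of 2 and 3 libraries did not overlap for 86 (17.2%) upward and 80 (16%) downward.

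The balance between higher and lower values depended on the replicates numbered 3 and on the scaling. Without replicate 3 at 1 week, 13 (2.33%) were higher and 28 (5.03%) lower at an unadjusted p, the opposite excess. Without replicate 3 at 4 weeks the numbers were 7 (1.42%) and 6 (1.22%), and with both left out 9 (1.7%) and 3 (0.566%). With library totals in place of TMM, which moved the median log2 fold change of all miRNAs tested from 0.12 to −0.38, 8 (1.6%) were higher and 23 (4.61%) lower. The adjusted count was 0 in each of these fits. Of the 28 miRNAs with the higher level, 9 stayed under an unadjusted p of 0.05 without replicate 3 at 1 week, 4 without replicate 3 at 4 weeks, 4 without both and 8 with library totals. Of the 8 with the lower level 8, 5, 2 and 8 did. The sign was kept by 27 or 28 of the 28 and by 8 of the 8 in these fits. Leaving out a library of ordinary composition moved the count too, to 50 higher and 12 lower without replicate 1 at 4 weeks.

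By class, the 28 with the higher level were 14 known miRNAs, 6 homologs and 8 new entries. Of the 14 known, 5 were at 0 in replicate 3 at 1 week and 11 had their highest level in replicate 3 at 4 weeks. The 8 with the lower level were 2 known miRNAs, 2 homologs and 4 new entries. The known ones were miR-199a-5p, a mesenchymal miRNA, with −1.09 ± 0.51 (SE), and let-7f-1-3p, the passenger strand of a let-7f precursor, with −1.11 ± 0.49 and 0 counts in replicate 3 at 1 week. let-7f-1-3p was named after its values were seen.

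**Figure D2:**
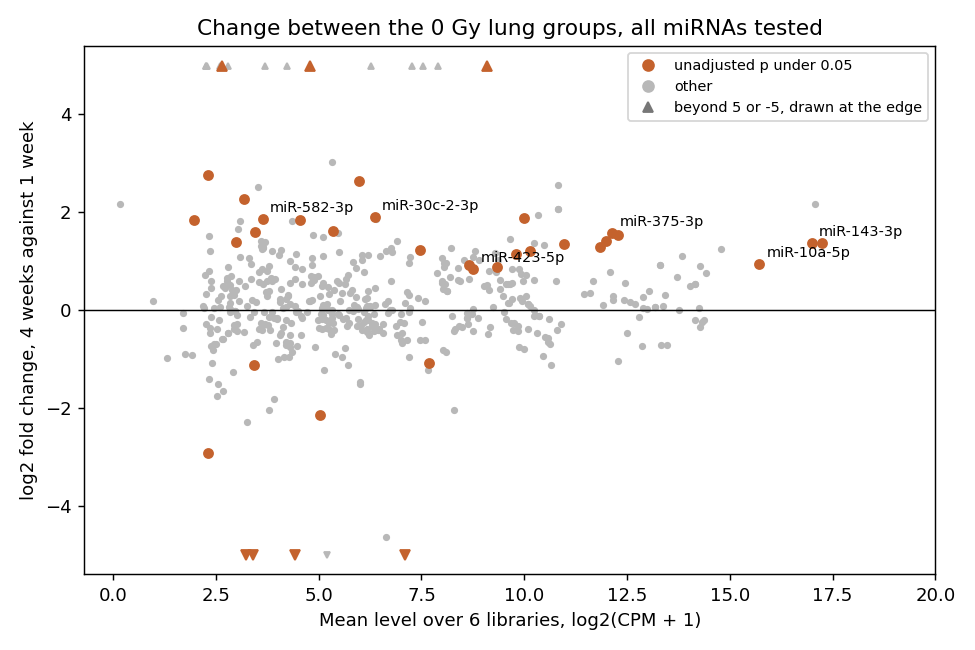
Each miRNA tested is drawn by its mean level, log2(CPM + 1) over the 6 libraries, and by its log2 fold change at 4 weeks against 1 week, with an unadjusted p under 0.05 in orange and values beyond 5 in either direction as triangles at the edge. The 28 orange points above 0 and the 8 below lie at all levels, and the fold changes spread more widely at low level.

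The miRNA with the smallest p among known rat miRNAs was miR-582-3p, a 3p arm of low abundance. It was at 5.44, 5.13 and 0 CPM at 1 week and at 12.6, 15.0 and 30.9 CPM at 4 weeks, so every 4 week library was above replicates 1 and 2 at 1 week. Its log2 fold change was 1.86 ± 0.57 (SE) at an adjusted p of 0.568, as for all 10 miRNAs of this set in edgeR. The value at 0 lies in the library whose floor was 161 CPM, so that library cannot be placed. Without it the change was 1.58, and without both replicates numbered 3 it was 1.37.

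miR-30c-2-3p, the passenger strand of a miR-30c precursor, was at 33.8, 48.8 and 0 CPM at 1 week and 58.0, 98.005 and 251 CPM at 4 weeks. The 4 week libraries lay above replicates 1 and 2 at 1 week, while the 0 in replicate 3 allows up to 161 CPM and cannot be placed. The log2 fold change was 1.90 ± 0.62. It was 1.05 without replicate 3 at 4 weeks and 0.92 without both replicates numbered 3. The fitted size thus moved with 1 library, while the sign was the same without it.

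miR-375-3p, known from neuroendocrine cells of the airway and from the pancreatic islet, was measured well in every library, with 3375, 2731 and 50 counts at 1 week and 12843, 9784 and 9856 counts at 4 weeks. Its levels were 1837, 2337 and 2689 CPM at 1 week and 3169, 4460 and 12670 CPM at 4 weeks, with no overlap. The log2 fold change was 1.57 ± 0.51 (95% interval 0.56 to 2.58). Without replicate 3 at 4 weeks it was 0.64, without replicate 3 at 1 week 1.42, and with library totals 0.60. As a share of the library, miR-375-3p took 0.221%, 0.283% and 0.430% at 1 week and 0.337%, 0.486% and 0.586% at 4 weeks. On that scale the groups overlapped, and an exact two-sided permutation test gave p = 0.2 (n = 3 against 3, smallest possible p 0.1, adjusted p 0.733 over 11 shares). The other 2 miRNAs of the neuroendocrine list, miR-7a-5p and miR-7b, did not pass the filter on low counts.

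miR-10a-5p, which is encoded within a Hox gene cluster, was the second most abundant known miRNA. It was at 36907, 37581 and 36405 CPM at 1 week and at 49281, 49478 and 113256 CPM at 4 weeks. The 1 week libraries were almost equal, the 4 week libraries all lay above them, and the log2 fold change was 0.93 ± 0.34. Its shares of counts were much closer, 4.45%, 4.55% and 5.83% at 1 week and 5.25%, 5.39% and 5.24% at 4 weeks, and they overlapped (exact permutation p = 0.4, adjusted p 0.733). The log2 fold change was 0.31 without replicate 3 at 4 weeks and 0.10 with library totals, where the median of all was −0.38. Replicate 3 at 4 weeks, highest by CPM, was about equal to the others of its group by share. The 60.6% of counts in miR-143-3p and the new entries that follow it lowers the other shares of that library.

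miR-423-5p, which is found in most tissues, was at 297, 362 and 269 CPM at 1 week and 381.7, 700 and 587 CPM at 4 weeks. These values did not overlap. At 53.8 CPM per count, the 269 CPM of replicate 3 at 1 week rests on few counts. The place of that library below the 4 week libraries is therefore loose. The log2 fold change of miR-423-5p was 0.83 ± 0.31, and it lay between 0.52 and 0.72 without either or both replicates numbered 3. It was 0.24 with library totals. Only here and for miR-107-3p, among the 10, was replicate 3 at 4 weeks not the highest library.

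miR-143-3p, the most abundant known miRNA of these libraries and a smooth muscle miRNA, was at 62553, 62695 and 92976 CPM at 1 week and 90018, 86581 and 386364 CPM at 4 weeks. The groups overlapped, since replicate 3 at 1 week was above 2 of the 4 week libraries. The log2 fold change was 1.37 ± 0.53, and it was 0.16 without replicate 3 at 4 weeks. In shares of counts it took 7.54%, 7.59% and 14.9% at 1 week and 9.58%, 9.43% and 17.9% at 4 weeks (exact permutation p = 0.5, adjusted p 0.733). The replicate numbered 3 was the highest of its group in both weeks and on both scales.

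miR-182, of the miR-183 cluster of sensory and epithelial cells, showed the same layout. It was at 1826, 2138 and 2689 CPM at 1 week and 2452, 2843 and 12492 CPM at 4 weeks, with overlap. The log2 fold change of 1.42 ± 0.56 became 0.15 without replicate 3 at 4 weeks. Its cluster partners gave −0.32 ± 0.43 for miR-183-5p and −0.51 ± 0.64 for miR-96-5p.

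The last of the 10 were miR-107-3p and 2 passenger strands. miR-107-3p was at 6.53, 4.28 and 0 CPM at 1 week and 9.13, 20.97 and 19.3 CPM at 4 weeks (1.59 ± 0.67), where the 0 again cannot be placed. miR-181a-2-3p was at 21.2, 24.0 and 0 CPM and then 21.7, 47.0 and 124.7 CPM (1.61 ± 0.68), and its log2 fold change was 0.67 without replicate 3 at 4 weeks and 0.60 without both replicates numbered 3. miR-125b-2-3p was at 98.5, 110 and 108 CPM and then 114, 260 and 368 CPM (1.23 ± 0.52), with 2 counts behind the value of replicate 3 at 1 week. It was 0.76 without replicate 3 at 4 weeks, so the sizes of both passenger strands moved with that library.

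**Figure D3:**
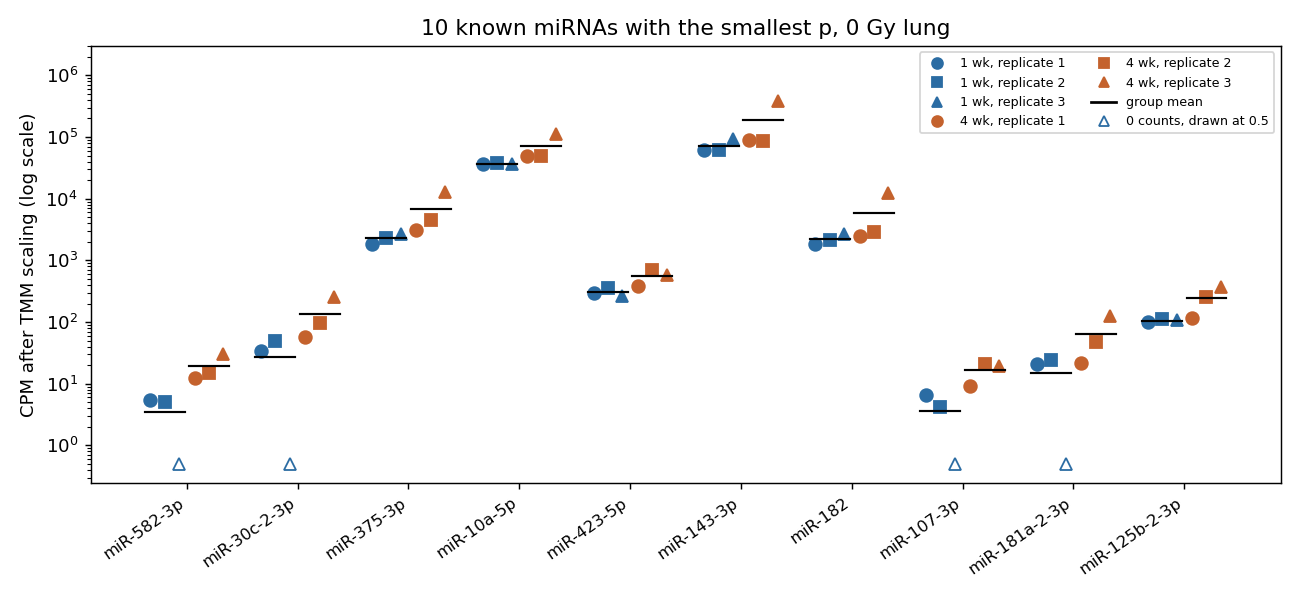
Levels in CPM after TMM scaling, on a log axis, of the 10 known miRNAs with the smallest p, with 1 point per library, bars at the group means and open triangles for libraries with 0 counts, drawn at 0.5. For miR-143-3p, miR-182 and miR-375-3p the highest point at 4 weeks is replicate 3, at 386364, 12492 and 12670 CPM, well above the other 4 week libraries.

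**Figure D4:**
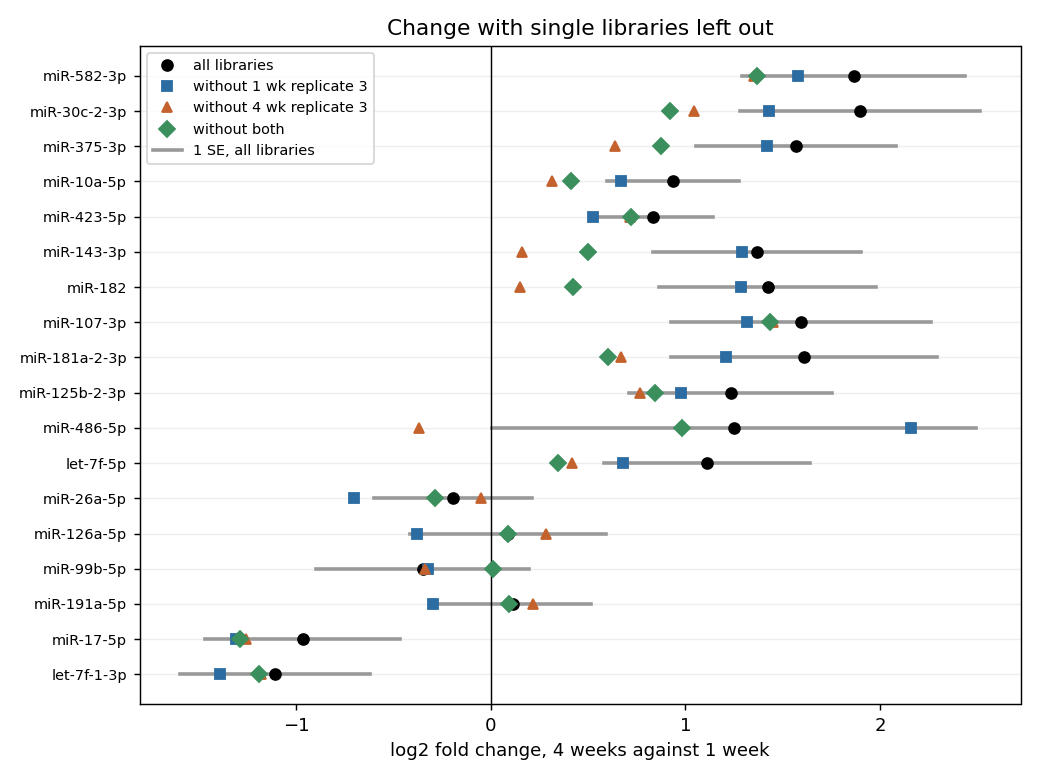
Log2 fold changes at 4 weeks against 1 week of 18 known miRNAs with all 6 libraries, without replicate 3 at 1 week, without replicate 3 at 4 weeks and without both, with bars of 1 standard error. The values of miR-143-3p move from 1.37 to 0.16 and those of miR-486-5p from 1.25 to −0.37 when replicate 3 at 4 weeks is left out, while miR-423-5p stays between 0.52 and 0.83.

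Among the other most abundant known miRNAs, some differed more between pools than between weeks and some hardly differed at all. miR-26a-5p, abundant in most differentiated tissues, was at 26854, 21816 and 9195 CPM at 1 week and 25357, 14270 and 11009 CPM at 4 weeks (log2 fold change −0.19 ± 0.41). miR-486-5p, a red cell miRNA, ran from 5749 to 36190 CPM at 1 week and from 6687 to 91658 CPM at 4 weeks. Its log2 fold change was 1.25 ± 1.24 with all libraries, −0.37 without replicate 3 at 4 weeks and 2.16 without replicate 3 at 1 week, so that no direction can be given.

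miR-191a-5p, which the study used as its reference miRNA for RT-qPCR, was at 7467, 7420 and 4302 CPM at 1 week and 7736, 8072 and 4990 CPM at 4 weeks. It had the lower level in the replicate numbered 3 of each group, and its log2 fold change was 0.11 ± 0.40. Its share of counts was 0.829% ± 0.122 (SD, n = 3) at 1 week and 0.645% ± 0.359 at 4 weeks (exact permutation p = 0.5, adjusted p 0.733). miR-30a-5p, of a family that is widely expressed, had 0.77 ± 0.41, with its highest level, 43742 CPM, in replicate 3 at 4 weeks and 14680 to 21670 CPM in the other 5. Without that library it was 0.17.

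The let-7 family, a set of miRNAs with the seed GAGGUAG that is known for restraining proliferation, had positive values in 7 of its 8 tested members and a median of 0.69, against 0.12 over all miRNAs tested. None passed the threshold, and 0 of 8 had an unadjusted p under 0.05 upward, against 5.61% of all. let-7f-5p was at 12020, 8948 and 6991 CPM at 1 week and 14543, 11946 and 33875 CPM at 4 weeks (1.11 ± 0.53), and let-7d-5p was the negative member (−0.17 ± 0.56). Without replicate 3 at 4 weeks, let-7f-5p was at 0.42 and the family's median at 0.10, with 4 of 8 members above the median of all. With library totals 2 of 8 were positive (median −0.14), but relative to the median of all the family lay at 0.24, with 5 of 8 above it. The size thus moved with 1 library and with the scaling. The family's summed share of counts was 2.19% to 2.91% at 1 week and 2.49% to 2.85% at 4 weeks, and the latter range lies within the former.

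The list of the miR-10, miR-99, miR-100 and miR-125 families went mostly the other way, but not its miR-10 member. Of 6 members tested, 5 were negative, with a median of −0.70, and 5 of 6 were also below the median of all without either or both replicates numbered 3 and with each other scaling. miR-125a-5p was at 11072, 14344 and 13013 CPM at 1 week and 8041, 8112 and 7296 CPM at 4 weeks. Its groups did not overlap and its SD within groups was 0.15 on the log2 scale over the 6 libraries. The fitted difference was −0.71 ± 0.52, and this error comes from the fit of all 18 lung libraries, not of these 6 alone. miR-100-5p was at 2570, 2145 and 1882 CPM and then 1262, 1245 and 533 CPM (−1.12 ± 0.75), also without overlap. miR-125b-5p had −0.69 ± 0.48 and miR-99a-5p −0.76 ± 0.75, with overlap. None of the 6 passed the threshold in the fit, and groups did not overlap downward for 2.4% of all miRNAs tested. The exception in sign was miR-10a-5p (0.93). By the seed CCCUGAG, miR-351-5p of another list belongs with miR-125a-5p and miR-125b-5p, and 1 of these 3 was positive.

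Other families with a common sign were small. The miR-181 family, miRNAs of lymphocytes and vessels, was positive in 4 of 4 members (median 0.64), with 3 of 4 above the median of all without replicate 3 at 4 weeks. With library totals 1 of 4 was positive and 3 of 4 were above the median of all, by 0.30 for the family's median. miR-181a-5p was at 7826, 11138 and 12476 CPM at 1 week and 8674, 20070 and 21257 CPM at 4 weeks (0.67 ± 0.43, and 0.36 without replicate 3 at 4 weeks). The 5 miRNAs with the seed AGCAGCA, the miR-15/16 family of cell cycle control, were all negative (median −0.42), and 2 of 5 were positive without replicate 3 at 4 weeks. The miR-29 family, which targets collagens, was negative in 3 of 3 (median −0.33), and in 2 of 3 without both replicates numbered 3.

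The lists of lung cell types had mixed signs. The lung epithelium list (miR-200 and miR-183 families) had 7 of 13 positive with a median of 0.01, and 3 of 13 were above the median of all. With library totals 1 of 13 was positive and 6 were above it, and without replicate 3 at 1 week 1 was positive and 2 were above it. Its summed share was 0.697% to 0.867% at 1 week and 0.622% to 0.852% at 4 weeks. miR-200b-3p was at 1019, 1218 and 161 CPM and then 1158, 655 and 340.65 CPM (−0.19 ± 0.64), and miR-429 gave 0.08 ± 0.49. Of the ciliated cell list (the miR-34 and miR-449 families) 3 of 6 were positive, and miR-34c-5p was at 618, 661 and 645 CPM and then 853, 734 and 1189 CPM (0.53 ± 0.34, and 0.20 without replicate 3 at 4 weeks) without overlap. At 53.8 CPM per count, the place of replicate 3 at 1 week is loose here. In RNA of whole lung tissue, fewer cells of a type and less RNA per cell cannot be told apart.

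Smooth muscle, endothelium and mesenchyme also gave mixed signs. Of the smooth muscle list 2 of 4 were positive (median 0.13). miR-145-5p, made from the same transcript as miR-143, had 0.64 ± 0.66, miR-145-3p −0.81 ± 0.77 and miR-143-5p −0.38 ± 0.54. The partners thus had mixed signs beside the 1.37 of miR-143-3p, which was 0.16 without replicate 3 at 4 weeks. For endothelium, miR-126a-5p was at 10685, 15023 and 5270 CPM at 1 week and 18788, 8404 and 5749 CPM at 4 weeks (0.09 ± 0.50), and miR-126a-3p at 7930, 8932 and 3226 CPM and then 9003, 3216 and 2286 CPM (−0.47 ± 0.51). The endothelial share of counts ran from 1.36% to 2.90% at 1 week and from 0.372% to 2.96% at 4 weeks, lowest in replicate 3 at 4 weeks. The mesenchyme list had 1 of 3 positive, and miR-199a-5p, at 319, 242 and 269 CPM and then 205.3, 108 and 77.1 CPM, was its only member without overlap. Since 1 count was worth 53.8 CPM in replicate 3 at 1 week, its 269 CPM rests on few counts. The place of that library above the 4 week libraries is therefore loose.

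Blood cell miRNAs are of interest because lung tissue holds blood. The red cell list had 3 of 5 positive with a median of 0.01, and its share of counts, most of it miR-486-5p, was 0.997%, 1.31% and 5.88% at 1 week and 1.00%, 2.503% and 4.27% at 4 weeks. The share was highest in the replicate numbered 3 of each group. miR-451-5p, the other defining red cell miRNA, was at 72.9, 53.1 and 53.8 CPM at 1 week and 83.1, 46.0 and 56.6 CPM at 4 weeks (0.01 ± 0.83). Replicate 3 at 1 week had 1 count of it, so it cannot be compared with miR-486-5p there, and at 4 weeks it was not highest in replicate 3. The part of blood content in any difference was not tested. Lymphocyte and leukocyte lists were each positive in 1 of 3, and miR-150-5p, a lymphocyte miRNA, had −0.11 ± 0.47.

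Of the liver list, miR-122-5p, which defines hepatocytes, had 0 counts in all 6 libraries. The other members, miR-192-5p (0.84 ± 0.46, and 0.29 without replicate 3 at 4 weeks) and miR-194-5p (−0.28 ± 0.45), which gut and kidney also hold, took 0.0696% to 0.138% of counts at 1 week and 0.0844% to 0.103% at 4 weeks. miR-208a-5p of heart had 0 counts in all 6, miR-1-3p of striated muscle had 0 to 14 counts and miR-133a-3p 0 to 150 counts. The miRNAs of the Dlk1-Dio3 imprinted region, which are mostly of fetal and neural tissue, passed the filter for 5 of 68, with 18 at 0 in all 6 libraries. Of the 5, 4 were positive and 3 above the median of all, and with library totals 0 were positive and 3 above it. The remaining lists had mixed signs, with 5 of 9 positive for the miR-17-92 and related clusters, 3 of 7 for the miR-322, miR-503 and miR-351 cluster and 3 of 5 for the miR-30 family and for inflammation. Within inflammation, miR-21-5p was at 776, 677 and 753 CPM and then 1115, 1037 and 1501 CPM (0.73 ± 0.44, and 0.45 without replicate 3 at 4 weeks), without overlap. At 53.8 CPM per count, the value of replicate 3 at 1 week is loose.

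**Figure D5:**
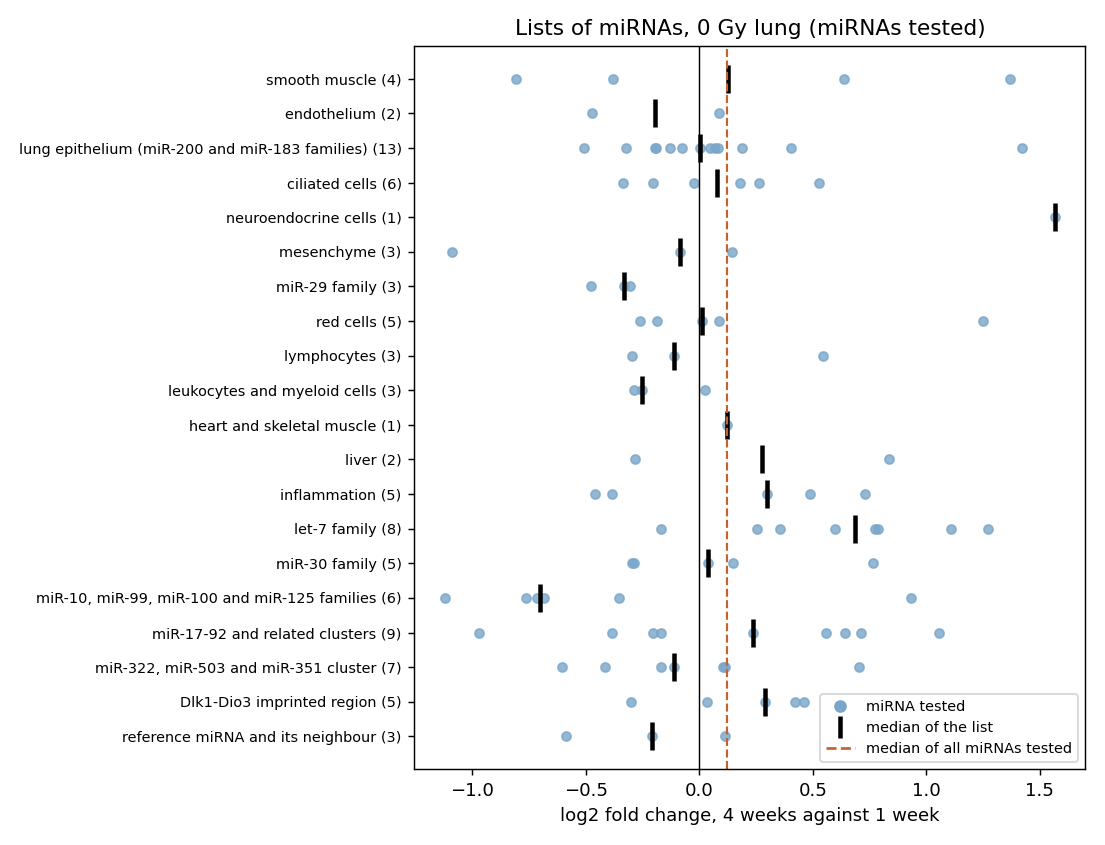
Log2 fold changes at 4 weeks against 1 week of the tested members of each list, with 1 point per miRNA, a tick at the list's median and a dashed line at the median of all miRNAs tested, 0.12. The let-7 family lies mostly to the right (median 0.69), the miR-10, miR-99, miR-100 and miR-125 families mostly to the left (median −0.70), and no member of any list passed the threshold.

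miRNAs that are made from 1 transcript or 1 hairpin can be compared within a library, where scaling plays no part. The pairs below were chosen after values had been seen, and 5 ratios were tested. The ratio of miR-126a-5p to miR-126a-3p was 1.35, 1.68 and 1.63 at 1 week and 2.09, 2.61 and 2.52 at 4 weeks. Every 4 week library was above every 1 week library, and the exact two-sided permutation test gave p = 0.1, the smallest possible, and 0.25 after adjustment. The ratio of let-7e-5p to miR-125a-5p, which share a transcript with miR-99b, was 0.0469, 0.0348 and 0.0289 at 1 week and 0.0727, 0.0684 and 0.174 at 4 weeks, also without overlap (exact permutation p = 0.1, adjusted p 0.25). That of miR-99b-5p to miR-125a-5p was 1.58, 1.38 and 2.27 at 1 week and 1.28, 3.36 and 2.03 at 4 weeks, with overlap (exact permutation p = 0.7). The value of let-7e-5p in replicate 3 at 1 week rests on 7 counts.

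The ratio of miR-182 to miR-183-5p was 4.10, 4.70 and 12.5 at 1 week and 7.51, 7.01 and 68.4 at 4 weeks (exact permutation p = 0.4), and that of miR-143-3p to miR-145-5p was 187, 143.4 and 576 and then 323.2, 242 and 447 (p = 0.6 in the exact permutation test). Both overlapped between weeks, and in both the replicate numbered 3 was the highest of its group. In replicate 3 at 1 week the denominators were 4 and 3 counts, so those ratios are loose. The ratio of miR-143-3p to miR-143-5p was 1197 and 1332 in replicates 1 and 2 at 1 week, at least 576 in replicate 3, where miR-143-5p had 0 counts, and 1754, 2793 and 23120 at 4 weeks. Whether this ratio overlapped between weeks is not known from a lower limit. Against either partner, miR-143-3p was highest in replicate 3 among the 4 week libraries.

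The spread between pools set the limit of the comparison. Over the 40 known miRNAs above 1000 CPM, the median SD of log2 CPM was 0.39 at 1 week and 0.64 at 4 weeks, or 1.31-fold and 1.55-fold for 1 SD. With replicates 1 and 2 alone it was 0.17 and 0.31. The libraries nearest to each other were not always of 1 week. The median difference in log2 CPM over these miRNAs was 0.24 between replicates 1 and 2 at 1 week and 0.26 between the replicates 1 of both weeks. It was 0.45 between replicates 1 and 2 at 4 weeks and 1.07 between replicates 1 and 3 at 4 weeks. Replicate 3 at 1 week lay closer to replicate 2 at 4 weeks (0.53) than to replicate 1 of its own week (0.77). The groups of week were thus not separated as a whole.

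The control groups give the background for the same weeks after 15 Gy, where 5 miRNAs (1%) passed the adjusted threshold between 4 weeks and 1 week in irradiated lung and 69 (13.8%) had an unadjusted p under 0.05. The change in 0 Gy lung minus that in 15 Gy lung passed for 0 (0%) in edgeR, with a smallest adjusted p of 0.0913, and 68 (13.6%) had an unadjusted p under 0.05. DESeq2 called 12, of which 3 were known rat miRNAs, and edgeR on known rat miRNAs only called 19 of 242. The 4 groups share no library.

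The 3 known miRNAs called by DESeq2 were miR-127-3p, miR-146a-5p and miR-142-5p. miR-127-3p, of the Dlk1-Dio3 region, was at 550, 561 and 645 CPM at 1 week and 577, 991 and 780 CPM at 4 weeks in 0 Gy lung, and at 889, 871 and 872 CPM and then 325, 311 and 155 CPM in 15 Gy lung. The log2 fold changes were 0.42 ± 0.33 and −1.73 ± 0.33, and the difference of 2.16 ± 0.47 had an adjusted p of 0.0913 in edgeR. miR-142-5p, a leukocyte miRNA, was at 113, 88.1 and 108 CPM and then 137, 56.5 and 56.6 CPM without radiation (2 counts in replicate 3 at 1 week), and at 16.9, 39.3 and 45.3 CPM and then 107, 172 and 361 CPM after 15 Gy. For it the difference was −2.93 ± 0.74 (edgeR adjusted p 0.1304). Among the 10 miRNAs with the smallest p in the controls, miR-423-5p had 0.83 ± 0.31 at 0 Gy and −0.93 at 15 Gy, where it was at 1120, 682 and 789 CPM and then 501, 428.8 and 428 CPM. That difference of 1.76 ± 0.44 had an edgeR adjusted p of 0.1304. These adjusted p are over all entries tested. In the edgeR fit on known rat miRNAs only, the adjusted p was 0.0228 for miR-127-3p and miR-142-5p and 0.0446 for miR-423-5p. miR-375-3p, miR-30c-2-3p and miR-181a-2-3p, also among the 10, were called in that fit too (edgeR adjusted p 0.0446 each). Without replicate 3 at 4 weeks, the changes of these miRNAs at 0 Gy were 0.64, 1.05 and 0.67. The 10 were picked by their change at 0 Gy, which is part of this difference. Calls among the 10 are therefore favoured by that choice and are no separate evidence. Across miRNAs, which are not independent replicates, Pearson's r between the changes at 0 Gy and at 15 Gy was −0.07 over all tested and −0.31 over the 40 abundant known miRNAs.

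In blood of the same control groups, 1 of 289 miRNAs (0.346%) passed between 4 weeks and 1 week, a predicted new entry on chromosome 19, and 12 (4.15%) had an unadjusted p under 0.05. The change in lung minus that in blood passed for 1 of 576 (0.174%), which was the same entry, and 35 (6.08%) had an unadjusted p under 0.05. It had 0 counts in the 3 blood libraries at 1 week and 58, 80 and 77 at 4 weeks, whereas in lung it was at 2399, 2192 and 1452 CPM and then 2091, 1290 and 1201 CPM (−0.40 ± 0.75). This entry overlaps other new entries, and which of them was given the reads in blood was not tested. miR-375-3p had the next difference among the miRNAs named, 3.03 ± 0.73 (edgeR adjusted p 0.0817), with 10, 7 and 11 counts in blood at 1 week and 3, 5 and 5 at 4 weeks. With RLE scaling its difference was 3.20 at an adjusted p of 0.0443. The counts in blood are so low that the blood side of this difference rests on few reads.

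Entries that are not known rat miRNAs made up much of the tested set. The homologs and new entries with the smallest p were mmu-miR-6240, with 6, 3 and 0 counts at 1 week and 32, 49 and 10 counts at 4 weeks (2.27 ± 0.64), mmu-miR-6239, with 2, 1 and 0 and then 12, 25 and 6 counts (2.76 ± 0.93), and a new entry on chromosome 9 (74233254 to 74233364 on the build rn4), with 20.7, 17.97 and 0 CPM and then 50.3, 48.3 and 239 CPM (2.63 ± 0.83, and 1.40 without replicate 3 at 4 weeks). All had 0 counts in replicate 3 at 1 week and an edgeR adjusted p of 0.568. Of the 373 new entries, 209 overlapped another new entry by their coordinates, in 139 pairs. In 69 pairs both entries had equal counts above 0 in at least 1 of the 6 libraries, and in 103 pairs 1 entry was at 0 in a library where the other was not. Some repeated a known miRNA. The new entry at 74233487 to 74233589 on chromosome 9 followed miR-375-3p at a ratio of 1.104 (SD of log2 ratio 0.03 over 16 lung libraries), and both on chromosome 18 followed miR-143-3p at 1.19 over 16 lung libraries. In replicate 3 at 1 week, which is not among these 16, 1 of the chromosome 18 entries was at 0. These new entries are not separate evidence for either miRNA.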

How the data were processed

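Lung RNA of unirradiated rats was sequenced as small RNA, 3 libraries at 1 week and 3 at 4 weeks, and groups were taken from the sample titles. The deposited values are raw read counts per miRNA. The authors removed adapters (Trim Galore 0.2.5 in the submitters' notes), mapped reads to miRBase 19 with Bowtie 1.1.1, discarded reads that matched other transcripts and searched the rest for new miRNAs with miRanalyzer. The notes name the build rn4, whose genome was not used here. How a read shared by near-identical miRNAs or overlapping new entries was counted is not given in the sources used here, so members of the let-7, miR-99/100 and similar families may share reads. Of the 139 overlapping pairs of new entries, 69 had equal counts above 0 in at least 1 of the 6 libraries. Total counts and shares can therefore hold a read more than once.

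The counts of all 18 lung libraries were fitted together in R 4.3.3 with edgeR 4.0.16 (limma 3.58.1), which gives a shared estimate of the spread. Low counts were removed with filterByExpr (minimum count 10), leaving 242 known rat miRNAs, 62 homologs and 195 new entries of the 947. Scaling was by TMM and the test was the quasi-likelihood test on the contrast of 4 weeks minus 1 week, with Benjamini-Hochberg adjustment over all entries tested and a threshold of 0.05. A standard error is the log2 fold change over the root of F, and intervals are 1.96 standard errors to each side. Interactions with 15 Gy lung and with blood (all 36 libraries, TMM within tissue) used the same test. Shares and ratios were compared with exact two-sided permutation tests, where 3 against 3 cannot go below p = 0.1. SDs are on log2(CPM + 1). Expected numbers of entries at lower depth are rarefaction values of vegan 2.7.1. Floors are 3 counts and account for counting error alone, as amplified reads without molecular identifiers are not separate molecules. The scripts were tested on simulated counts whose spread was set lower than that of these libraries. That test therefore does not show what size of change could be detected here.

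The group compared, the lists and the miRNAs named were chosen with earlier results of these data known. Named are the 10 known miRNAs with the smallest p (fewer than 5 passed the threshold), several of the most abundant, members of the lists, and the homologs and new entries with the smallest p. Alternatives were RLE, library totals or miR-191a-5p for scaling, no filter or a mean count above 1000, DESeq2 1.42.0, unadjusted p, known miRNAs only, only the 6 libraries, log depth as a covariate, a replicate block, omission of libraries shallower than 0.1 of the median, and each library left out. The fit without both replicates numbered 3 was added after the data were seen.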

Additional observations from a re-analysis of the deposited data

Results flagged for a closer look

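A predicted new entry on chromosome 19 (25638547 to 25638840 on rn4) had a change from 1 to 4 weeks that differed between lung and blood of unirradiated rats. The interaction in edgeR was −9.36 ± 1.26 (SE) with an adjusted p of 5.47e-05. It had 0 counts in the 3 blood libraries at 1 week and 58, 80 and 77 at 4 weeks, so the fitted size depends on the prior count and is no bound. In lung it had 4407, 2562 and 27 counts at 1 week and 8474, 2830 and 934 counts at 4 weeks, with a log2 fold change of −0.40 ± 0.75. The cause was not tested.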

How the results depend on the processing

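The count of 0 miRNAs past the adjusted threshold held in every edgeR fit, with a leave-one-out range of 0 to 0, and DESeq2 gave 4 higher and 2 lower. At an unadjusted p the counts were 28 higher and 8 lower. The counts of higher values became 8 with library totals, 13 with miR-191a-5p as the size, 3 with a mean count above 1000, 11 with only the 6 libraries and 9 without both replicates numbered 3, with 7 to 50 over the libraries left out in turn. The counts of lower values became 23 with library totals, 5 with a mean count above 1000 and with DESeq2, 4 with only the 6 libraries, 13 without the shallow lung libraries, 3 without both replicates numbered 3 and 2 with the replicate block, with 1 to 28 over the libraries left out. The block by replicate number left 0 adjusted calls and 23 higher at an unadjusted p. The deviations of same-numbered libraries had r = 0.07, 0.04 and 0.19 over all miRNAs tested and r = 0.83, −0.16 and 0.63 over the abundant known ones. Not every pair was above 0.1 and the labels name no shared batch, so the samples were taken to share only a number. The difference from the 15 Gy change gave 19 calls with known miRNAs only, 12 with DESeq2 and 68 unadjusted (0 to 0 over libraries left out). The difference from blood gave 2 with RLE, 0 with known miRNAs only and 35 unadjusted (1 to 2 over libraries left out), and blood alone 0 with known miRNAs only, 2 with DESeq2 and 12 unadjusted (1 to 1).

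Of 1877 log2 fold changes of the 109 named miRNAs under the alternatives, 227 changed sign, for 59 miRNAs, with 38 of these under library totals, which moved the median of all by −0.50. Where the value reported was at least its standard error, 11 changed sign. With library totals, these were miR-30a-5p (−0.048), miR-181a-5p (−0.066), miR-127-3p (−0.19), miR-34c-5p (−0.18), miR-486-5p (−0.038), let-7a-5p (−0.22), let-7e-5p (−0.015), let-7i-5p (−0.051), miR-92a-3p (−0.013) and miR-25-3p (−0.15), and miR-486-5p ran from −0.37 (without replicate 3 at 4 weeks) to 2.16 (without replicate 3 at 1 week) over the libraries left out. The cause of these moves was not tested. Depth limits every miRNA of low level, since 340 of the tested entries would have under 3 counts at the depth of replicate 3 at 1 week.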
